A study of Mus musculus with 6 samples.

Results

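The 9 genes described here are chemokine receptors that guide leukocytes along homing paths other than the CXCR5 path into the B cell follicle, together with a chemokine ligand. They are Ccr2, Ccr4, Ccr9, Ccr10, Cxcr4, Cxcr6, Cx3cr1, the atypical receptor gene Ccrl2 and the ligand gene Xcl1. They were chosen by name, and each of the 9 symbols was found among the 14744 gene symbols of the table. RNA had been sequenced from T follicular helper (Tfh) cells, the CD4+ T cells on which germinal center B cells depend for help. The cells were sorted from the mesenteric lymph nodes (MLNs), which drain the intestine, by the surface pattern CD4+B220-CD44+PD-1+CXCR5+, with 10000 to 30000 cells in a sample. There were 3 WT samples and 3 samples labelled Bach2-cKO, from mice labelled C57BL/6 (a C57BL/6J background in the study's methods) at 2 to 3 months of age. The comparison asks how the transcriptome of Tfh cells differs when the transcriptional repressor Bach2 is deleted in T cells.

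The Bach2-cKO mice carried a pair of floxed Bach2 alleles and a Cd4-cre transgene (Bach2fl/flCd4-cre), and the study designates Cd4-Cre littermates as WT, so that the Cre transgene was common to both groups. Floxed mice came from a single targeted embryonic stem cell clone, from which the neo cassette had been removed with FLPe. The Cd4 promoter drives Cre from the double positive stage in the thymus. Deletion therefore precedes Tfh differentiation, and is not limited to Tfh cells: conventional CD4+ T cells, regulatory T cells and CD8+ T cells are affected as well. No source used here says that the 3 samples of a group came from separate animals, so p-values measure the spread between samples, which may be technical.

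Chemokine receptors are receptors with 7 membrane spans that couple mainly to Gi proteins and turn a gradient of chemokine into directed movement and integrin activation. Each homing path has its own pair of ligand and receptor: Ccr9 with Ccl25 for the small intestine, Ccr4 with Ccl17 and Ccl22 and Ccr10 with Ccl27 for the skin, Cxcr6 with Cxcl16 for liver and other non-lymphoid tissue, and Ccr2 and Cx3cr1 for inflamed tissue and vessel walls. Cxcr4 binds Cxcl12 and places cells in the bone marrow and in the dark zone of the germinal center. Ccrl2 binds the chemoattractant chemerin without signalling, and Xcl1 is secreted by activated T cells and NK cells and attracts Xcr1+ dendritic cells.

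The values are read counts per gene divided by a size factor of each library, and are called normalized counts below. In each library 100% of the values were whole multiples, within a tolerance of 0.01 of a step, of a smallest step. Taking that step as 1 read, WT replicates 2 and 3 held 6585742 and 7823717 reads on genes, and replicates 1, 2 and 3 labelled Bach2-deficient held 5045131, 10987752 and 7197242. The step of WT replicate 1 was too close to 1 for reads to be claimed, and its values corresponded to 7737531 steps. Reads were not marked by molecule, so that floors from these counts cover counting error only. WT replicate 1 stood apart from the rest: 11648 genes had a value above 0 in it, and 13111 to 13567 in each of the rest. Its log2 values correlated across genes at r = 0.789 to 0.862 with those of the other libraries, while pairs without it gave 0.885 to 0.949, where genes are not independent replicates. Values without this library are given beside several results below and plotted for each tested member.

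The targeted gene was examined first. Bach2 stood at 233, 222 and 105 normalized counts in WT replicates 1, 2 and 3, and at 399, 763 and 591 in the samples labelled Bach2-cKO. It was thus higher in each Bach2-cKO sample than in each WT sample, with a log2 fold change of 1.68 (SE 0.37, limma adjusted p = 0.141), and DESeq2 on 5 libraries gave 1.81 (adjusted p = 0.00123). Reads on exons outside the deleted part count toward the gene, and the annotated genes Bach2os and Bach2it1 overlap it. A lower level of the targeted transcript was thus not seen, and loss of the floxed exons was not tested, since counts are per gene. Below, these samples are named the libraries labelled Bach2-deficient, and each direction is drawn from that label.

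Genes of the sort gate were present in all 6 libraries. Cd4 was at 2500.1, 2407 and 2792 in WT and 4131, 3341 and 3349 in the other group, and Cxcr5, the receptor for the follicle chemokine Cxcl13, at 1613, 1444 and 2039 against 2028, 1271 and 2207. Pdcd1, the gene of PD-1, was at 2708, 1594 and 2403 against 2159, 1462 and 1927, and its log2 fold change was -0.26 (SE 0.25, limma adjusted p = 0.557). Cd44, a receptor for hyaluronan, was at 1090.1, 1776 and 1741 against 3856, 2615 and 2313 without overlap between the groups. Ptprc, from which the B220 form of CD45 is spliced, was at 14598, 26997 and 28517 against 31593, 24908 and 27345. Of the B cell markers, Ms4a1 (CD20) was at 35.3, 33.7 and 45.8 in WT and 2.96, 2.68 and 10.2 in the libraries labelled Bach2-deficient. In limma Ms4a1 was the single gene of 5 tested B cell markers with an unadjusted p under 0.05 (20.4% of all tested genes). Of the 5 log2 fold changes 4 were below 0, and that of Cd22 was 0.94 (SE 0.55, limma adjusted p = 0.343), with overlap. DESeq2 on 5 libraries gave 3 of these markers lower and 0 higher at an unadjusted p under 0.05 (19.1% of all genes in either direction). Of these it called Cd79a, at -2.71 (adjusted p = 0.000455), while Cd79b was at -1.31 (adjusted p = 0.0285).

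The 9 genes spanned a wide range of levels. To compare genes, normalized counts were divided by the length of the longest annotated transcript in kb. Averaged over 6 libraries, Xcl1 was at 1935 per kb, Cxcr6 at 537, Cxcr4 at 269, Ccr9 at 66.1, Ccr4 at 63.3, Ccr2 at 29.3, Ccrl2 at 12.1, Cx3cr1 at 5.04 and Ccr10 at 0.0647. On the same scale Cxcr5 was at 621, Cxcr3 at 421 and Ccr7 at 374. The only neighbours in this order whose ranges over the libraries did not overlap were Cxcr4, from 156 to 445 per kb, and Ccr9, from 29.6 to 143. Within libraries, Cxcr6 was above Cxcr4 in 5 of 6, Xcl1 above Cxcr6 in 5 of 6, and Ccr9 above Ccr4 in 2 of 6. The order of the lower genes depended on the group: Ccr9 and Ccr4 averaged 44.0 and 64.5 per kb in WT but 88.2 and 62.1 in the libraries labelled Bach2-deficient, and Ccrl2 and Cx3cr1 16.4 and 2.04 but 7.88 and 8.04. Thus Cxcr6 and Cxcr4 were the most abundant receptors of the group, Ccr9, Ccr4 and Ccr2 formed a middle tier, and Ccrl2 and Cx3cr1 lay near the bottom of the genes tested. In absolute terms Xcl1 had the widest range, from 113 to 6664 per kb. As a ratio its range was not the widest, since Ccrl2 ran from 0.410 to 30.4 per kb and Cx3cr1 from 0 to 9.54.

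**Figure D1:**
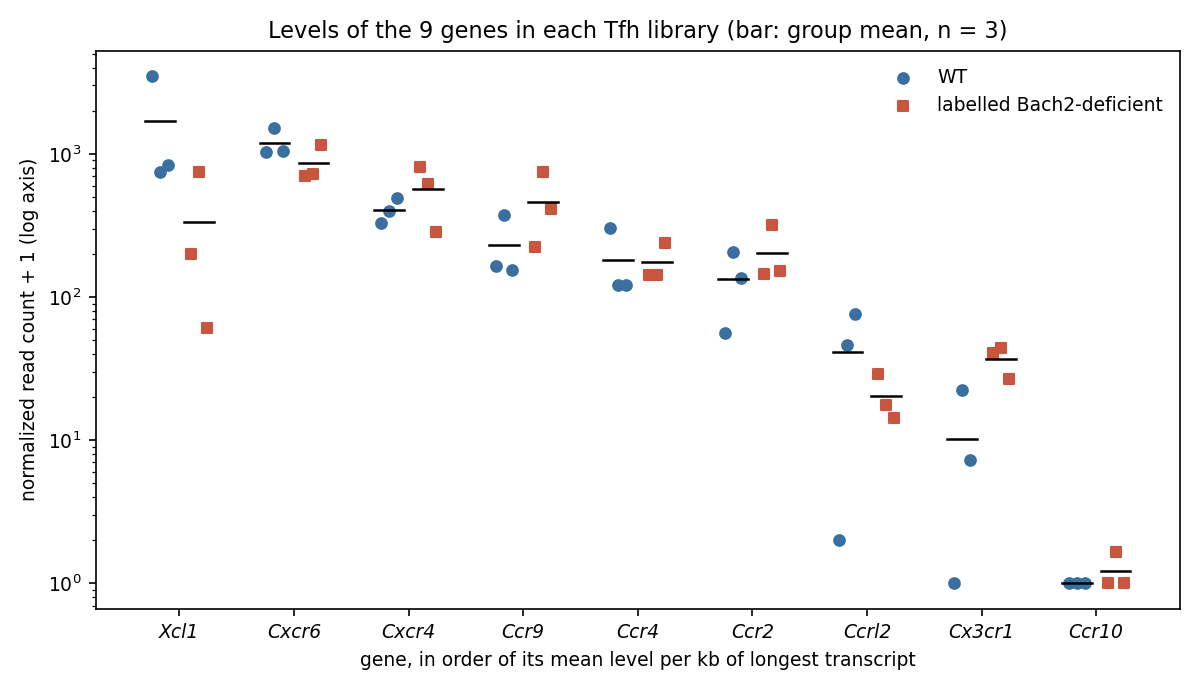
Normalized read count plus 1 (log axis) of each of the 9 genes in 3 WT libraries (blue circles) and 3 libraries labelled Bach2-deficient (red squares), in order of the mean level per kb, with black bars at group means. The groups are separate for Cx3cr1 and, by a narrow margin (748 against 743), for Xcl1, and overlap or lie near 0 for the other genes.

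Most of the 9 genes overlapped between the groups. Cx3cr1 was higher and Xcl1 lower in the libraries labelled Bach2-deficient without overlap, and neither passed the adjusted threshold. The test was limma on log2(normalized count + 1), run over the 11296 genes that reached 10 normalized counts in at least 3 libraries. The added 1 understates the fold change of a low gene, while a library at or near 0, such as WT replicate 1 for Cx3cr1 and Ccrl2, can move such a gene strongly on this scale. With limits of 0.01 on the adjusted p and 2 on the fold, 0 of the 8 tested members passed, and neither did any other gene (0% of 11296). The smallest adjusted p over all genes was 0.141. Unadjusted p-values under 0.05 were found for 2 of 8 members, against 20.4% of all tested genes: Cx3cr1 was higher (10.1% of all genes) and Xcl1 lower (10.2%). In the same way 1 member was higher without overlap between groups, where 14.6% of all tested genes were, and 1 was lower without overlap, where 12.2% were. These shares lie near the background. DESeq2 on the 5 libraries with recovered reads called 33 genes higher and 57 lower, 0.797% of 11295 genes with an adjusted p, and 0 members, of which Ccrl2 alone had an unadjusted p under 0.05 there. The edgeR quasi-likelihood test on the same reads called 0 genes, and among the members it too gave an unadjusted p under 0.05 for Ccrl2 only. Under that p were 19.1% of all genes in DESeq2 and 18.3% in edgeR. Of the 8 log2 fold changes, 6 were above 0 and 2 below, with a median of 0.21 against 0.08 over all tested genes. Rescaling the libraries to a common median turned the sign of Ccr4 and Ccrl2, so these counts of directions depend on the scaling.

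**Figure D2:**
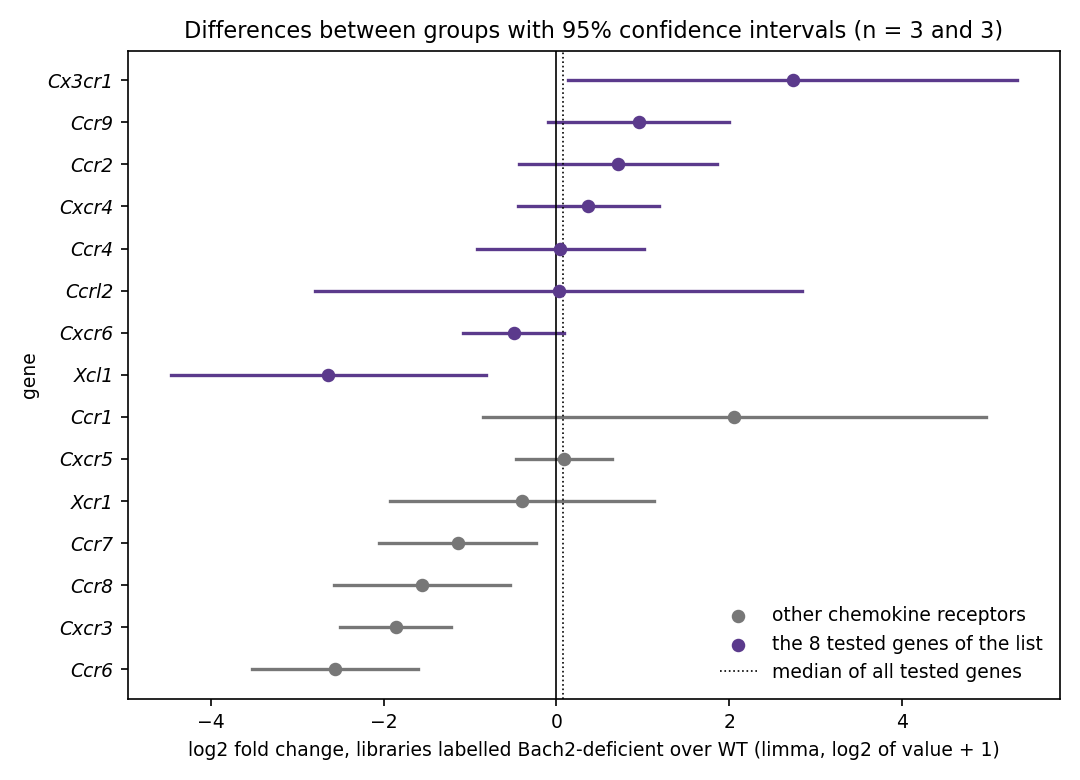
Log2 fold change (x axis, limma) of the 8 tested members (purple) and of 7 other tested chemokine receptors (grey), with 95% confidence intervals as lines and the median of all tested genes as a dotted line. The intervals of Cx3cr1 (above) and Xcl1 (below) leave out 0, as do those of Ccr7, Ccr8, Cxcr3 and Ccr6 (below), and no gene passed the adjusted threshold.

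Among receptors for inflamed tissue, Cx3cr1, the fractalkine receptor of monocytes and of cytotoxic and effector T cells, had the largest absolute log2 fold change of the group in the fit reported here, while Xcl1 or Ccrl2 exceeded it under several alternatives, among them other scalings and the fit without WT replicate 1. It was at 0, 21.3 and 6.24 normalized counts in the WT libraries, and the libraries labelled Bach2-deficient gave 39.9, 42.9 and 25.6. Each of the latter was above each WT library, yet all 6 values were low: behind them stood 19 and 6 reads in WT replicates 2 and 3, and 27, 64 and 25 reads in the other group. The log2 fold change was 2.74 (SE 1.17, 95% confidence interval 0.13 to 5.34, limma adjusted p = 0.227). With the zero of WT replicate 1 left out it was 1.51 (SE 0.71, confidence interval -0.05 to 3.08, limma adjusted p = 0.272), and DESeq2 gave 1.36 (adjusted p = 0.343). The locus, chr9:119901616-120069879 on the minus strand in GENCODE M21 (GRCm38), overlaps Csrnp1 and Gorasp1 on the same strand and Wdr48 on the opposite strand.

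Ccr2 receives Ccl2 and marks inflammatory monocytes and effector memory T cells. Its level was 55.5, 206 and 134 in WT and 143, 317 and 150.3 in the libraries labelled Bach2-deficient, where WT replicate 1 was the lowest of all and replicate 2 labelled Bach2-deficient the highest. The groups overlapped, and the log2 fold change was 0.71 (SE 0.52, 95% confidence interval -0.44 to 1.86, limma adjusted p = 0.43). It was 0.19 (SE 0.40) without WT replicate 1 and 0.23 in DESeq2. Ccr2 lies at chr9:124101950-124113557 on the plus strand.

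Both receptors are typical of myeloid cells, and the whole monocyte or macrophage list was measured beside them. Of its 8 genes, 7 were tested, and 0 were higher and 2 lower, Fcgr1 and Cd68, at an unadjusted p under 0.05. Over all tested genes 10.1% were higher and 10.2% lower at that p, and the list's median log2 fold change was -0.79. Summed over the list, normalized counts were 2476, 8510.4 and 5515 in WT and 2688, 5879.6 and 2117 in the libraries labelled Bach2-deficient. Most of this was Lyz2, the lysozyme gene of phagocytes, at 1848, 7212 and 3444 against 1445, 4396 and 1407. The defining marker Csf1r, the receptor of the macrophage growth factor, was at 14.1, 212 and 152 against 214, 371 and 177, and like Ccr2 it was lowest in WT replicate 1 and highest in replicate 2 labelled Bach2-deficient. Lyz2 and the list's sum were highest in WT replicate 2. Neither defining marker was at 0 in any library. In bulk samples fewer cells of a type and less RNA per cell cannot be told apart, and the part of these cells in Ccr2 and Cx3cr1 was not tested.

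Ccr9, the receptor for the thymic and small intestinal chemokine Ccl25, was at 163, 370.2 and 154 normalized counts in the WT libraries, against 223, 741 and 410.1 in those labelled Bach2-deficient. WT replicate 2 exceeded replicate 1 of the other group, so the groups overlapped, with means of 229 ± 122 and 458 ± 262 (SD, n = 3 each). The log2 fold change was 0.95 (SE 0.47, 95% confidence interval -0.09 to 2.0001, limma adjusted p = 0.274). Under library weights, which were lowest for WT replicate 1 (0.206) and highest for replicate 2 of the other group (5.54), it was 1.65 (limma adjusted p = 0.0032). This was the single setting in which a member passed the thresholds, and 561 genes higher and 567 lower of 11296 passed there. Without that heavily weighted library it was 0.52. The gene spans chr9:123678439-123784330 on the plus strand, where Lztfl1 and Slc6a20a lie on the opposite strand. Of its 10306 transcript words of 50 bases, 17.8% are shared with an annotated transcript on the opposite strand, and use of strand in the counting is not stated, so such reads cannot be told apart.

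Plasmacytoid dendritic cells also carry Ccr9, and mostly B220, against which the gate selected. Their marker Siglech, the most abundant gene of the dendritic cell list, was at 83.8, 232 and 198 in WT and 88.7, 229 and 27.6 in the other group. Summed over the 7 listed genes, normalized counts were 334, 507 and 317 against 392, 489 and 195. An unadjusted p under 0.05 was found for 0 of 7, against 20.4% of all tested genes. The defining markers Flt3 and Zbtb46 were at 24.2, 31.4 and 7.28 and at 65.6, 46.0 and 31.2 in WT, and at 8.87, 14.1 and 4.09 and at 59.1, 44.9 and 36.8 in the libraries labelled Bach2-deficient. The part of these cells in Ccr9 was not tested.

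The skin homing receptors differed from each other in level. Ccr4, which is also carried by Th2 and regulatory T cells, was at 303, 120.0 and 119.6 normalized counts in WT and 142, 142 and 238 in the libraries labelled Bach2-deficient, with WT replicate 1 the highest and replicate 3 of the other group next. Its log2 fold change was 0.05 (SE 0.43, 95% confidence interval -0.92 to 1.0097, limma adjusted p = 0.962), and 0.49 (SE 0.35) without WT replicate 1. The gene lies at chr9:114490316-114504916 on the minus strand. Ccr10 was at the limit of detection: 1 read was counted, in replicate 2 labelled Bach2-deficient (0.670 normalized counts), and the other libraries were at 0. A count of 0 allows up to 3 counts, or 3.07 to 4.43 normalized counts over the libraries at 0 with recovered reads. In WT replicate 1, where reads are not claimed, 3 steps are 3.03 normalized counts. It was not tested and no fold is given. Ccr10 lies at chr11:101172997-101175443 on the minus strand, with Cntnap1 on the opposite strand.

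Cxcr4 was at 329, 398 and 489 normalized counts in the WT libraries. Libraries labelled Bach2-deficient held 803, 613 and 282, which included both the highest and the lowest of the 6 values. The means were 405 ± 80.1 and 566 ± 263 (SD, n = 3 each), and the log2 fold change was 0.37 (SE 0.37, 95% confidence interval -0.45 to 1.19, limma adjusted p = 0.569). Leaving out replicate 3 labelled Bach2-deficient gave 0.81, and leaving out replicate 1 of that group gave 0.06. The gene lies at chr1:128588199-128592293 on the minus strand.

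Cxcr6, which marks tissue-resident and type 1 effector T cells, had the highest mean normalized count of the receptors among the 9 genes. The WT libraries were at 1021, 1505 and 1049, and the libraries labelled Bach2-deficient at 696, 718 and 1155. In the latter, replicates 1 and 2 were below each WT value, while replicate 3 lay within the WT range. Means were 1192 ± 272 and 856 ± 259 (SD, n = 3 each), with a log2 fold change of -0.49 (SE 0.26, 95% confidence interval -1.08 to 0.09, limma adjusted p = 0.301). Once each library was freed of a smooth trend in transcript length and GC content, the value was -0.02 (limma adjusted p = 0.973), so the value depends on that correction. Cxcr6 lies at chr9:123806475-123811760 on the plus strand, within the span of Fyco1 on the opposite strand.

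Ccrl2 was at 1.009, 44.9 and 74.9 normalized counts in the WT libraries and 28.1, 16.8 and 13.3 in the others. WT replicate 1, with a single step of signal, was far below the other WT libraries. With all 6 libraries the log2 fold change was 0.03 (SE 1.27, 95% confidence interval -2.79 to 2.84, limma adjusted p = 0.993). Without WT replicate 1 it was -1.60 (SE 0.62, limma adjusted p = 0.207), and DESeq2 on 5 libraries gave -1.68 (adjusted p = 0.14). Leaving out replicate 1 labelled Bach2-deficient also turned the direction, to -0.26. The gene lies at chr9:111054486-111057519 on the minus strand.

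Xcl1, the ligand of the group, was lower in the libraries labelled Bach2-deficient. Xcl1 stood at 3485, 748 and 836 normalized counts in WT and at 199.5, 743 and 59.3 in the other group. WT replicate 1 was more than 4-fold above the other WT libraries, and the lowest WT value exceeded the highest of the other group by a few counts. The log2 fold change was -2.64 (SE 0.82, 95% confidence interval -4.47 to -0.82, limma adjusted p = 0.155). It was -1.93 (SE 0.73, limma adjusted p = 0.205) without WT replicate 1 and -1.28 (adjusted p = 0.578) in DESeq2, and leaving out each library in turn gave -3.56 to -1.75. With library weights, which were lowest for WT replicate 1, it was -0.69 (limma adjusted p = 0.292). The gene lies at chr1:164931644-164935527 on the minus strand, and 10.8% of its 50-base words are shared with annotated transcripts on the opposite strand. Its receptor gene Xcr1 was at 104, 44.9 and 31.2 in WT and 69.5, 17.4 and 51.1 in the libraries labelled Bach2-deficient.

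NK cells are a known source of Xcl1, and their list was measured beside it. The gate required CD4, CD44, PD-1 and CXCR5, and how many such cells passed it is not known. Of the 7 NK cell or ILC genes, 0 were higher and 2 lower, Nkg7 and Eomes, at an unadjusted p under 0.05. Over all tested genes 10.1% were higher and 10.2% lower at that p, and the list's median log2 fold change was 0.09. The list summed to 6860.4, 5739 and 4146 normalized counts in WT and 2526, 6113 and 2189 in the libraries labelled Bach2-deficient. Nkg7, a granule gene shared by NK cells and cytotoxic T cells, was the most abundant, at 5536, 2907 and 2633 against 962, 2417 and 1432, and like Xcl1 it was highest in WT replicate 1 and did not overlap between groups. Eomes was at 507, 155 and 72.8 against 34.0, 131 and 28.6. Of the defining markers, Ncr1 was at 0 in WT replicate 1, where Xcl1 was highest, and at 52.7 and 7.28 in WT replicates 2 and 3, and Klrb1c was at 115, 265 and 304. In the libraries labelled Bach2-deficient Ncr1 was at 10.3, 96.5 and 10.2 and Klrb1c at 69.5, 163 and 98.2. Klrb1c overlapped between the groups, with a log2 fold change of -1.01 (SE 0.47, limma adjusted p = 0.255), and -1.38 (adjusted p = 0.0381) in DESeq2. The part of these cells in Xcl1 was not tested. Cd8a, of the CD8 T cell list, was at 48.4, 269 and 134 against 174, 58.3 and 94.1, and the sum of Cd8a and Cd8b1, the more abundant, was 176, 786 and 552 against 361, 332 and 413.

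**Figure D3:**
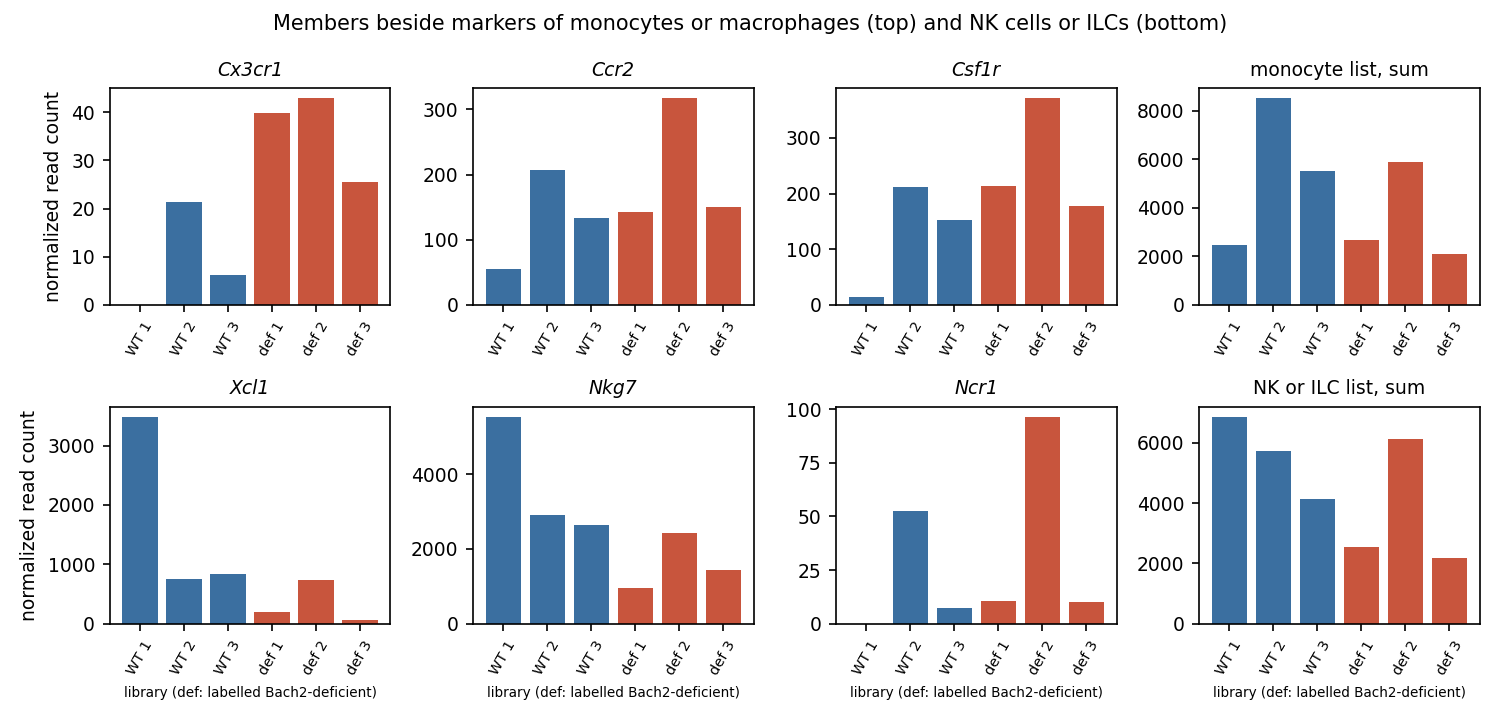
Normalized read counts (y axis, from 0) in each library, WT in blue and labelled Bach2-deficient in red, of Cx3cr1, Ccr2, Csf1r and the summed monocyte or macrophage list (top), and of Xcl1, Nkg7, Ncr1 and the summed NK cell or ILC list (bottom). Csf1r and Ccr2 are both lowest in WT replicate 1 and highest in replicate 2 labelled Bach2-deficient. In WT replicate 1 Ncr1 is at 0, while Xcl1 (3485), Nkg7 (5536) and the NK cell or ILC sum (6860.4) are at their highest. That library also had the fewest genes with a value above 0 (11648).

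Single libraries had a large share in several of these values. WT replicate 1 held the lowest Ccr2, Cx3cr1 and Ccrl2 and the highest Ccr4 and Xcl1 of all libraries. Replicate 2 labelled Bach2-deficient held the highest Ccr2, Ccr9 and Cx3cr1. With each library left out in turn, the direction was kept for Ccr2, Ccr9, Cxcr4, Cxcr6, Cx3cr1 and Xcl1 and turned for Ccr4 and Ccrl2. Members at an unadjusted p under 0.05 numbered 1 to 3 in these fits, where 9.51% to 27.2% of all tested genes were. Xcl1 was among them in each of these fits, but not with library weights, edgeR or DESeq2.

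**Figure D4:**
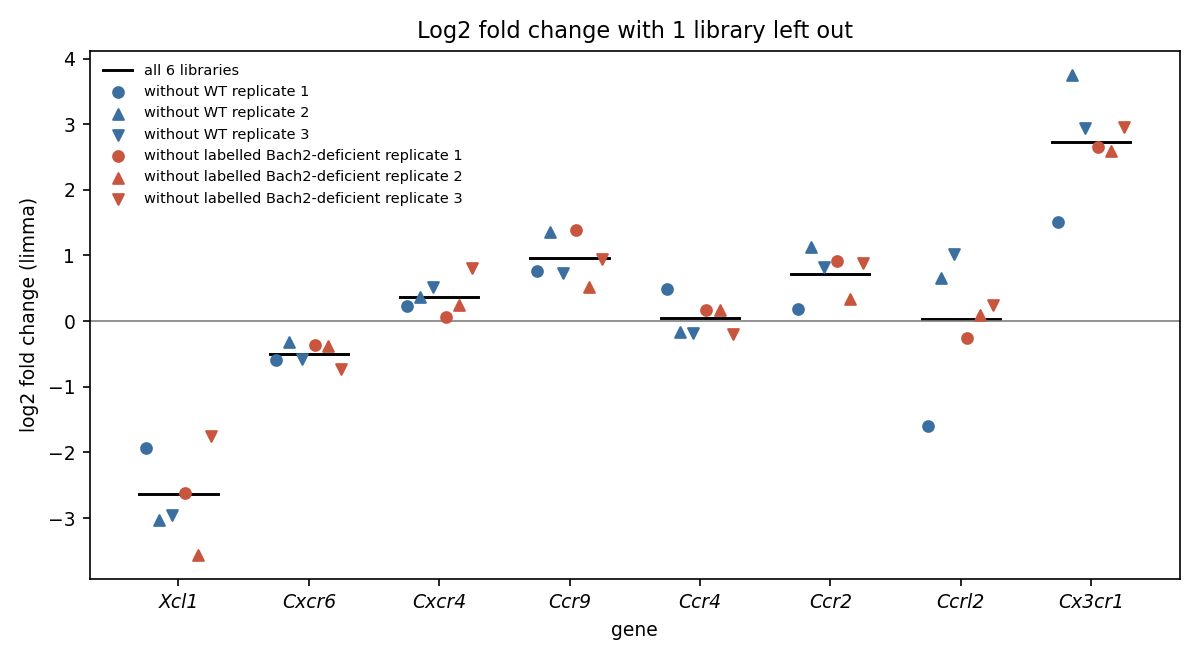
Log2 fold change (y axis, limma) of each tested member with all 6 libraries (black line) and with each library left out (blue: a WT library, red: a library labelled Bach2-deficient). Without WT replicate 1 (blue circles) Cx3cr1 is at 1.51 and Ccrl2 at -1.60, and Xcl1 lies between -3.56 and -1.75 over the 6 fits.

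Among the other chemokine receptors, those with a low p were all lower in the libraries labelled Bach2-deficient. Of 12 in the table, 7 were tested, with a median log2 fold change of -1.14. At an unadjusted p under 0.05 there were 0 higher and 4 lower, where 10.1% and 10.2% of all tested genes were. Cxcr3, the receptor of Th1 cells for Cxcl9 and Cxcl10, was at 1276, 952 and 1174 normalized counts in WT and 251, 247 and 477 in the libraries labelled Bach2-deficient, which gives a log2 fold change of -1.86 (SE 0.29, limma adjusted p = 0.141). For Ccr6, the Ccl20 receptor of Th17 cells, the values were 645, 273 and 227 against 59.1, 62.3 and 50.1, with a log2 fold change of -2.56 (SE 0.43, limma adjusted p = 0.141). The groups did not overlap for either gene, and DESeq2 on 5 libraries called both lower, at -1.74 (adjusted p = 0.000202) and -2.16 (adjusted p = 2.49e-05). Ccr8, a skin and regulatory T cell receptor, was at 270.5, 107 and 254 against 47.3, 70.4 and 83.9, also without overlap, with a log2 fold change of -1.56 (SE 0.46, limma adjusted p = 0.151). The regulatory T cell gene Foxp3 was also lower without overlap (log2 fold change -1.76, SE 0.43, limma adjusted p = 0.141). The part of regulatory T cells in Ccr8 was not tested. Ccr7, which leads T cells into the lymph node and its T cell zone, was at 1433, 1148 and 507 against 273, 464 and 609.6, and its groups overlapped (log2 fold change -1.14, SE 0.41, limma adjusted p = 0.177). Without WT replicate 1 it was -0.84 (limma adjusted p = 0.264), no longer under an unadjusted p of 0.05. DESeq2 on the same 5 libraries gave -0.91 for Ccr7 (adjusted p = 0.177), still under that unadjusted p. Whether these receptors differ from the 9 members was not tested. Cxcr1 and Ackr3 were at 0 in all 6 libraries.

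Transcripts of the members' own ligands, which stromal and myeloid cells are known to make, were measured as well. Of 11 present, 7 were tested, with a median log2 fold change of 0.75. In limma 2 were higher and 0 lower at an unadjusted p under 0.05, where 10.1% and 10.2% of all tested genes were. Ccl12, a mouse ligand of Ccr2, was at 0, 15.7 and 7.28 normalized counts in WT and 25.1, 208 and 33.8 in the libraries labelled Bach2-deficient, which gives a log2 fold change of 3.47 (SE 1.22, limma adjusted p = 0.174). Ccl8 was at 13.1, 21.3 and 174 against 167, 357 and 84.9, with overlap, and a log2 fold change of 2.18 (SE 0.88, limma adjusted p = 0.21). Both were highest in replicate 2 labelled Bach2-deficient. Without WT replicate 1 Ccl12 was at 2.29 (limma adjusted p = 0.203) and Ccl8 at 1.47 (limma adjusted p = 0.309), where Ccl8 was no longer under an unadjusted p of 0.05. DESeq2 gave 2.94 (adjusted p = 0.0297) for Ccl12, 1.03 (adjusted p = 0.668) for Ccl8 and -2.04 (adjusted p = 0.0265) for Ccl22. Its count at an unadjusted p under 0.05 was 1 ligand higher and 1 lower, where 19.1% of all genes were in either direction. The DESeq2 median was -0.34, so the sign of the list's median depended on WT replicate 1 or the method. Without replicate 2 labelled Bach2-deficient 0 of these ligands had an unadjusted p under 0.05 in limma, where 10.7% of all tested genes did. The sum over the list was 216, 596 and 806 against 430.1, 950.1 and 365, with the Ccr4 ligand Ccl22 the most abundant, at 2.02, 288 and 322 against 25.1, 157 and 41.9. Cxcl12 and Cx3cl1, the ligands of Cxcr4 and Cx3cr1, did not exceed 1.48 and 2.96 in any library.

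Of 15 other chemokines in the table, 10 were tested, with a median log2 fold change of -1.38. In limma 0 were higher and 2 lower at an unadjusted p under 0.05, where 10.1% and 10.2% of all tested genes were. Ccl20, the ligand of Ccr6, was at 397, 233 and 67.6 in WT and 53.2, 1.34 and 1.02 in the libraries labelled Bach2-deficient, with a log2 fold change of -4.87 (SE 1.21, limma adjusted p = 0.141). Ccl4, secreted by activated T cells and NK cells as is Xcl1, was at 1189, 116 and 821 against 20.7, 261 and 62.4, and its log2 fold change was -2.77 (SE 0.96, limma adjusted p = 0.173). In DESeq2 Ccl20 was at -3.08 (adjusted p = 0.387) and Ccl4 at -2.05 (adjusted p = 0.445), neither under an unadjusted p of 0.05. Under that p DESeq2 had 2 others lower and 0 higher, where 19.1% of all genes were in either direction. These were Cxcl10 at -1.21 (adjusted p = 0.0374) and Ccl5 at -0.94 (adjusted p = 0.113). The count of other chemokines under that p was 1 to 5 over the alternatives, where the share of all genes was 9.51% to 47.2%. As with Xcl1, WT replicate 1 held the highest Ccl4 and Ccl20 of all libraries. Ccl5 was the most abundant chemokine, at 1586, 3315 and 3525 against 1579.9, 2893 and 1002, with overlap.

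Downstream of the receptors, 32 of 33 listed genes of signalling and desensitization in the table were tested. At an unadjusted p under 0.05 there were 7 higher and 4 lower, where 10.1% and 10.2% of all tested genes were, and the median log2 fold change was 0.38. Plcb3 and Plcb2, phospholipases that chemokine receptors activate, were among those higher without overlap: Plcb3 was at 6.06, 7.85 and 16.6 in WT and 97.5, 96.5 and 38.9 in the libraries labelled Bach2-deficient (log2 fold change 2.81, SE 0.72, limma adjusted p = 0.141), and Plcb2 at 83.8, 136 and 84.2 against 244, 200.3 and 184 (log2 fold change 1.07, SE 0.35, limma adjusted p = 0.161). Adrbk1, which encodes the receptor kinase GRK2, was at 827, 850.3 and 887 against 2088, 1609 and 1129 (log2 fold change 0.87, SE 0.24, limma adjusted p = 0.145). Rapgef1, an exchange factor for the integrin-activating GTPase Rap1, was at 268, 434 and 496 against 934, 783 and 643 (log2 fold change 1.006, SE 0.28, limma adjusted p = 0.146). Of those lower, Rac1 and Rac2 encode GTPases of cell movement: Rac1 was at 4016, 3007 and 3808 against 1651, 2001 and 3018 with overlap (log2 fold change -0.73, SE 0.25, limma adjusted p = 0.164), and Rac2 at 19144, 18179.6 and 22651 against 9851, 10707 and 16663 (log2 fold change -0.72, SE 0.24, limma adjusted p = 0.164). After the correction for length and GC content, Plcb3 was at 2.14, Rac1 at -1.04 and Rac2 at -0.91. In the same fit Plcb2 was at 0.49, Adrbk1 at 0.38 and Rapgef1 at 0.24. The list's count at an unadjusted p under 0.05 was 6 in place of 11, where 14.5% of all genes were in place of 20.4%. Over all alternatives the count was 5 to 20, where the share of all genes was 9.51% to 47.2%. The alpha subunit Gnai2 was at 2784, 2549.7 and 2839 against 2989.9, 2924 and 4078, with a log2 fold change of 0.27 (SE 0.20, limma adjusted p = 0.422).

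Homing receptors of other families were measured in the same way. All 16 in the table were tested, with 4 higher and 1 lower at an unadjusted p under 0.05 (10.1% and 10.2% of all tested genes) and a median log2 fold change of 0.20. Gpr15, which leads T cells to the large intestine, was at 97.9, 122 and 127 normalized counts in WT and 19.2, 16.1 and 41.9 in the libraries labelled Bach2-deficient, which gives a log2 fold change of -2.24 (SE 0.53, limma adjusted p = 0.141). DESeq2 called it lower at -2.30 (adjusted p = 0.00696). By contrast with Gpr15, the small intestinal receptor Ccr9 had a positive value that overlapped between groups, and the integrin genes of the gut path, Itga4 and Itgb7, had log2 fold changes of 0.01 and 0.21. The difference between these genes was not tested. Itgal, the alpha chain of LFA-1, was at 1614, 2671 and 2898 against 7365, 5114 and 4049 (log2 fold change 1.203, SE 0.28, limma adjusted p = 0.141, and 0.64 after the correction for length and GC content), and Cd44, part of the sort gate, had a log2 fold change of 0.93 (SE 0.26, limma adjusted p = 0.146), and 0.62 after it. Ptger4, a prostaglandin E2 receptor, was at 109, 157 and 135 against 289.7, 467 and 213 (log2 fold change 1.21, SE 0.36, limma adjusted p = 0.151). Gpr183, the oxysterol receptor that guides T cells and B cells to the follicle border, was at 1469, 2529 and 2432 against 3275, 2379 and 4039 with overlap, and a log2 fold change of 0.60 (SE 0.27, limma adjusted p = 0.245). Without WT replicate 1 it was 0.35 (limma adjusted p = 0.441), no longer under an unadjusted p of 0.05.

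The remaining marker lists are given as sums, from which the cells present cannot be told. T cell genes summed to 62315, 63809 and 83618 normalized counts in WT and 48162, 50696 and 61272 in the libraries labelled Bach2-deficient. Their defining marker Cd3e was at 10623, 9648 and 11924 against 4534, 5238 and 6139.8, and Cd3d was the most abundant. DESeq2 on 5 libraries called Cd3e lower at -1.05 (adjusted p = 0.00351). In limma 1 of the 5 T cell genes was higher and 2 lower at an unadjusted p under 0.05 (10.1% and 10.2% of all tested genes). The higher gene was Cd4, without overlap between the groups. Among genes of the Tfh list, Sh2d1a, the gene of the adaptor SAP, was the most abundant at 8077, 8969 and 13546 against 7647, 5489.7 and 9236, and the list summed to 17712, 19546 and 27238 against 19572, 13993 and 19728. Of its 7 genes 2 were higher and 1 lower at an unadjusted p under 0.05 in limma (10.1% and 10.2% of all tested genes). The 2 higher genes, Cd44 and Bcl6, did not overlap between the groups. Bcl6 was at 436, 342 and 501 against 792, 818 and 537 (log2 fold change 0.74, SE 0.26, limma adjusted p = 0.173). In DESeq2 Bcl6 was at 0.73 (adjusted p = 0.156). The lower gene, Icos, was at 2547, 4079 and 4953 against 1675, 1440 and 2511, without overlap. DESeq2 called Icos lower at -1.30 (adjusted p = 0.00176). Foxp3, the defining gene of regulatory T cells, many of which carry Ccr4 and Ccr8, was at 222, 315 and 344 against 47.3, 140.0 and 91.0, and its list, led by Ikzf2, summed to 5030.5, 5799 and 7052 against 6308, 5043 and 4267. Foxp3 did not overlap between the groups, and DESeq2 called it lower at -1.84 (adjusted p = 0.00425). B cell genes summed to 242, 779.6 and 569.8 against 427, 336 and 328, with Cd79b the most abundant. The plasma cell list varied widely: its immunoglobulin joining chain gene Jchain was at 316, 28803 and 6972 against 2075, 472 and 484, while the defining marker Sdc1 did not exceed 13.5, and the list summed to 1904, 30008 and 8274 against 3014, 1375 and 1457. Neutrophil genes, led by S100a8 at 1.009, 23.6 and 4.16 against 11.8, 91.1 and 17.4, summed to 1.009, 39.3 and 19.8 against 17.7, 111 and 24.5, and S100a9 was at 0 in 3 of 6 libraries.

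The genes with the most similar profile over the 6 libraries were named for 2 members, as a description. For Cxcr6, the tested member with the highest mean normalized count (not divided by length), they were Ggh (Pearson r = 0.994 of log2 values over 6 libraries), Zfand1 (0.987) and Eral1 (0.986), and 16 genes were over 0.95. Ggh was at 382, 555 and 386 normalized counts in WT and 262, 251 and 402 in the libraries labelled Bach2-deficient, and shared with Cxcr6 its highest value in WT replicate 2. For Cx3cr1, with the largest absolute log2 fold change in the fit reported here, they were Bod1l (0.999), Stat2 (0.997) and Fbxl18 (0.997), and 410 genes were over 0.95. Stat2 was at 50.5, 219.9 and 131 against 333, 324 and 280.2, with WT replicate 1 the lowest as for Cx3cr1.

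Of the 9 genes, 6 lie on chromosome 9, 2 on chromosome 1 and 1 on chromosome 11. Ccr9, Cxcr6 and Ccr2 are part of a cluster of chemokine receptor genes, with Xcr1, Ccr1 and Ccr3 between the members. The stretch from the start of Ccr9 to the end of Ccr2 spans 435 kb and overlaps 9 genes of the table, of which Slc6a20a extends beyond it. The log2 fold changes there were 0.95 for Ccr9, -0.49 for Cxcr6, -0.40 for Xcr1, 2.06 for Ccr1 and 0.71 for Ccr2, and the interval of each took in 0.

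Promoter sequence is shown because the targeted factor, Bach2, is a DNA-binding protein: with small Maf partners it recognizes elements that contain the core TGANTCA, the AP-1 site. Windows of 250 bases before the annotated start were taken from RefSeq (GRCm38.p6), which had them for 8 of the 9 genes (10 windows, of which 3 were of Ccrl2). Both strands were searched, which for this palindromic core is the same search. It was found in 1 of the 8 genes, Ccr4, and in 6.75% of all 32851 windows of this length (7.82% of 27025 genes). The match in Ccr4, TGAGTCA, runs from 143 to 137 bases before the RefSeq start. The windows of Ccr4, Ccr9 and Cx3cr1 lie wholly within the GENCODE spans given above, as does a window of Ccrl2. For these genes the RefSeq start used here thus differs from the outer GENCODE start. Ccr4 is printed with the core in capitals, beside the members with an unadjusted p under 0.05, Xcl1 and Cx3cr1, in which these letters were not found. The windows lie at chr9:114496545-114496794 on the minus strand (Ccr4), chr1:164935523-164935772 on the minus strand (Xcl1) and chr9:120068297-120068546 on the minus strand (Cx3cr1), each written 5′ to 3′ on its own strand.
Ccr4: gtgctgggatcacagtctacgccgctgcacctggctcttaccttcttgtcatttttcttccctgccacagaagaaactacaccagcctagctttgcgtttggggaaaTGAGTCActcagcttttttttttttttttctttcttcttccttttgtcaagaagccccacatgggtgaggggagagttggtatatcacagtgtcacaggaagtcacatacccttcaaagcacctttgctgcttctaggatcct
Xcl1: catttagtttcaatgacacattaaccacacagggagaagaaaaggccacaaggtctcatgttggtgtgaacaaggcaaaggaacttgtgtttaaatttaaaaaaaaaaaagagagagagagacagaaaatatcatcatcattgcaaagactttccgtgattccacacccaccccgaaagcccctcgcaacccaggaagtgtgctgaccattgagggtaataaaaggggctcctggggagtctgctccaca
Cx3cr1: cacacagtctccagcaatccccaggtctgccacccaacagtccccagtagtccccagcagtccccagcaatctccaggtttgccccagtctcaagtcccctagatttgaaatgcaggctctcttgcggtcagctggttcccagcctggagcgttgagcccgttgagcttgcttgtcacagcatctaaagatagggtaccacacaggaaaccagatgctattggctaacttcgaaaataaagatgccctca

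A match is a description of the letters and does not show a bound site. No measurement of binding was part of these data.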

How the data were processed

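Tfh cells of 6 samples were profiled by RNA sequencing after cDNA amplification with the SMARTer Ultra Low kit. The authors deposited a signal per gene and library, read counts divided by a size factor. The study's methods name Tophat2, HTSeq and DESeq2, whereas the submitters' processing notes name STAR 2.5.2b, DESeq, DESeq2 1.20.0, R 3.5.1 and GRCm38 (mm10), so the aligner differs between sources. Mapping settings and use of strand are not given in the sources used here.

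From these values log2(normalized count + 1) was fitted with limma 3.58.1 in R 4.3.3 on all 6 libraries, with a trended prior variance, over the 11296 genes with at least 10 in at least 3 libraries. P-values were 2-sided and adjusted by Benjamini-Hochberg over all genes tested. The thresholds were 0.01 for the adjusted p and 2 for the fold. For 5 libraries, all but WT replicate 1, whole reads were recovered from the step of the values (100% whole within 0.01 of a step) and tested with edgeR 4.0.16 (TMM, quasi-likelihood) and DESeq2 1.42.0 (no independent filtering). Each procedure was run on simulated data with 200 changed genes, of which no outcome is used here. An exact permutation test of 3 samples against 3 cannot give a 2-sided p below 0.1, and none was used.

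Lengths and coordinates are from GENCODE M21 on GRCm38, which matched 14329 symbols directly and 364 by an older symbol. Genes named were the 9 members, Bach2 and genes of the gate, from each of 5 lists up to 6 genes at an unadjusted p under 0.05 in order of p, from each marker list the most abundant gene and the defining markers, and the 3 most similar genes for each of 2 members. Other genes named were chosen after values were seen. They were Bach2os, Bach2it1, Xcr1, Fcgr1, Cd68, Cd22, Cd79a, Icos, Bcl6, Eomes, Ccl5, Cxcl10, Gnai2, Itga4, Itgb7, Cxcr1, Ackr3, Cxcl12, Cx3cl1 and positional neighbours. Not every gene of the lists as first fixed is analysed here. Members and lists were chosen with earlier results of these data known. Alternatives were other pseudocounts, filters, scalings, variance models and thresholds, library weights, removal of a length and GC trend, a replicate block, count tests and leaving out each library.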

Additional observations from a re-analysis of the deposited data

How the results depend on the processing

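With limma on 6 libraries 0 genes were higher and 0 lower past the thresholds, where 2301 genes had an unadjusted p under 0.05. Those counts became 561 and 567 with library weights and 33 and 57 with DESeq2 on 5 libraries. They were 0 under the other pseudocounts, filters, scalings, variance model and threshold, with edgeR, with the replicate block, and from 0 to 0 with each library left out. Members past the thresholds numbered 1 with library weights (Ccr9) and 0 in each other setting, from 0 to 0 with a library left out. Members at an unadjusted p under 0.05, 2 in the fit reported, numbered 5 with library weights and 1 with a pseudocount of 0.5, a mean of at least 50, the length and GC trend removed, edgeR or DESeq2, and from 1 to 3 with a library left out. In the same settings the share of all genes under that p was 47.2% (library weights), 20.1%, 23.7%, 14.5%, 18.3% and 19.1% in that order, and 9.51% to 27.2% with a library left out, against 20.4% in the fit reported. Over all alternatives the number at that p was 3 to 5 for other chemokine receptors (4 in the fit reported), 0 to 3 for ligands (2), 1 to 5 for other chemokines (2), 5 to 20 for signalling (11) and 4 to 9 for other homing receptors (5). The cause was not tested, apart from the mean of at least 50, by which Cx3cr1 and Ccrl2 were no longer tested.

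The direction of Ccr2, Ccr9, Cxcr4, Cxcr6, Cx3cr1 and Xcl1 was kept in each setting that tested them. Ccr4 turned to -0.0371 with median rescaling and -0.0418 with quantile normalization. Ccrl2 turned to -0.29 with a pseudocount of 5, -0.0495 with median rescaling, -1.16 with quantile normalization, -1.54 with library weights, -1.65 in edgeR and -1.68 in DESeq2. Cxcr5 turned to -0.40 under library weights and -0.0273 once length and GC trends were taken out. Ptprc turned to -0.0718 with library weights and -0.0213 in DESeq2. With single libraries left out, log2 fold changes ran from -0.20 to 0.49 for Ccr4, -1.60 to 1.02 for Ccrl2, -0.0661 to 0.33 for Cxcr5, 0.19 to 1.13 for Ccr2, 0.52 to 1.39 for Ccr9, 0.06 to 0.81 for Cxcr4, -0.73 to -0.31 for Cxcr6 and 1.51 to 3.75 for Cx3cr1.

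Replicate numbers were shared between the groups, and whether they mark pairs is not known. The correlation between libraries of the same number, as deviations from group means, was -0.07, 0.12 and -0.04. Between libraries of different numbers it was -0.145 to 0.117, so pairing cannot be told from these values. With the replicate block 0 genes passed the thresholds, and 3 members (Ccr9, Cx3cr1 and Xcl1) and 18.2% of all genes had an unadjusted p under 0.05. The median log2 fold change of all genes was 0.08 as deposited, 0.00 after median rescaling and 0.02 after quantile normalization. At the depth of these libraries, Cx3cr1, Ccrl2 and Ccr10 rest on few reads, and for the other members the spread between 3 libraries limits precision.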
